A study of Mus musculus with 24 samples.

Results

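The axon guidance ligands and receptors of the mouse hippocampus were examined in neurons and glia after kainate. The group was chosen by gene symbol: the class 3 to class 7 semaphorins, plexins, neuropilins, netrins, Dcc and the Unc5 receptors, slits, Robo receptors, ephrins and Eph receptors with at least 10 counts in at least 3 of the 12 mRNAseq libraries. It held 68 genes, 34 ligands and 34 receptors, of 53379 genes in the count table, and every gene whose symbol matched met the count rule. Adult male C57/BL6N mice, acquired at 8 weeks and acclimatized for 4 weeks, received kainic acid (KA) or saline (SH, sham) by intracortical injection beside the right hippocampus. All mice were given buprenorphine, and KA mice without convulsive seizures were left out by the study. Right hippocampi were taken 24 hours post injection from 8 mice per treatment and combined into 3 pools, with 4 mice in the pools of replicate 1 and 2 mice in those of replicates 2 and 3. The nuclei were then divided by sorting on NeuN, a nuclear protein of neurons, which gave 4 groups of 3 libraries: KA neurons and SH neurons (NeuN+ nuclei), KA glia and SH glia (NeuN- nuclei). The NeuN- fraction is not a pure glial population, since nuclei of vessel and blood cells lack NeuN too, and nuclear RNA does not show what is translated.

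Axon guidance cues are secreted or membrane-bound proteins that attract or repel growing axons, and neurons of the adult hippocampus still use them at synapses and dendritic spines. Secreted class 3 semaphorins act mostly through neuropilins and plexins, and the membrane-bound classes act on plexins directly. Netrins attract through Dcc and repel through Unc5 receptors, slits repel through Robo receptors, and ephrins and Eph receptors signal in both directions between touching cells, with A-type ephrins tethered by a lipid anchor and B-type ephrins spanning the membrane.

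Total counts ranged from 7769400 to 40364768 per library, and the 68 genes together took 0.353% to 0.711% of them. All 68 passed the filter on low counts, and 62 were at 1 CPM (counts scaled to a common library size) or more in every library. Of the cell type markers, 15 of 15 neuronal markers were higher in NeuN+ nuclei, and 9 of 10 astrocytic, 10 of 10 microglial, 8 of 8 oligodendrocytic and 5 of 5 oligodendrocyte precursor (OPC) markers were lower. Of the markers of vessel and blood cells, 1 of 7 endothelial, 3 of 5 pericytic and 2 of 6 leukocyte markers were lower in NeuN+. The summed level of the neuronal markers was 757 to 3471 CPM in NeuN- libraries against 9427 to 17327 CPM in NeuN+ libraries, so a low NeuN- value of a neuronal gene lies on top of some neuronal RNA. The reverse held too. The oligodendrocytic sum was 145 to 1280 CPM in NeuN+ libraries against 7488 CPM or more in NeuN- libraries, so low NeuN+ values of glial genes have the same limit. SH glia replicate 1 and KA glia replicate 2 were amplified from about 0.05 ng RNA with 15 cycles, the others from about 1 ng with 10 cycles.

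To show what lies just before the start of these genes, letters of the binding sites of AP-1 and CREB, factors that neuronal activity switches on, were searched on both strands. A loose form of the AP-1 site was used (TGANTCA, N for any base), and TGACGTCA for CREB (the CRE). The windows were RefSeq promoters of GRCm38.p6, 250 bases before to 50 bases after a transcription start, which 58 of the 68 genes had. The AP-1 letters stood in 3 of the 74 windows of these genes (4.05%) and in 7.81% of all 32817 windows, and the CRE letters in 1 of 74 (1.35%) and in 1.79% of all windows. The matches are printed 5′ to 3′ on the strand of the gene with the matched letters in capitals, because 2 of them belong to genes whose KA and SH values are described further on, Epha2 and Sema4c. The windows shown are chr4:141301177-141301206 on the plus strand for Epha2, and on the minus strand chr1:36558386-36558414 for Sema4c, chr13:51749032-51749060 for Sema4d and chr17:56133883-56133911 for Sema6b. A match of letters is a description and not a bound site.
Epha2 (CRE): cgtggtttcggTGACGTCAgcgcagggcat
Sema4c (AP-1): ggcgcagacctTGACTCAcgagctgcaag
Sema4d (AP-1): ccccacatcccTGAATCAgcctatatagg
Sema6b (AP-1): cacacgtactcTGAGTCAcaaatcctgga

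The first question was where each gene is expressed. Between NeuN+ and NeuN- nuclei, 32 of the 68 genes were higher in NeuN+ and 16 lower at an FDR (adjusted p, edgeR's quasi-likelihood test) of 0.05. Over all 37598 genes tested, 11.6% were higher and 6.91% lower. The 68 genes all code for proteins, and among protein-coding genes 27.7% differed in either direction, against 70.6% of the 68. With the pool of mice as a block the counts were 36 and 18 (19.7% and 9.84% of all genes), with Dcc, Efnb1, Nrp2 and Plxna3 added to the higher and Sema3b and Sema5b to the lower genes. In SH alone 36 of the 68 differed (10.7% of all genes) and in KA alone 34 (9.86%). The libraries of both fractions did not overlap at all for 25 genes higher in NeuN+ and 11 lower, against 7.6% and 4.68% of all genes. Since these are bulk libraries, fewer cells of a type and less RNA per cell cannot be told apart.

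**Figure D1:**
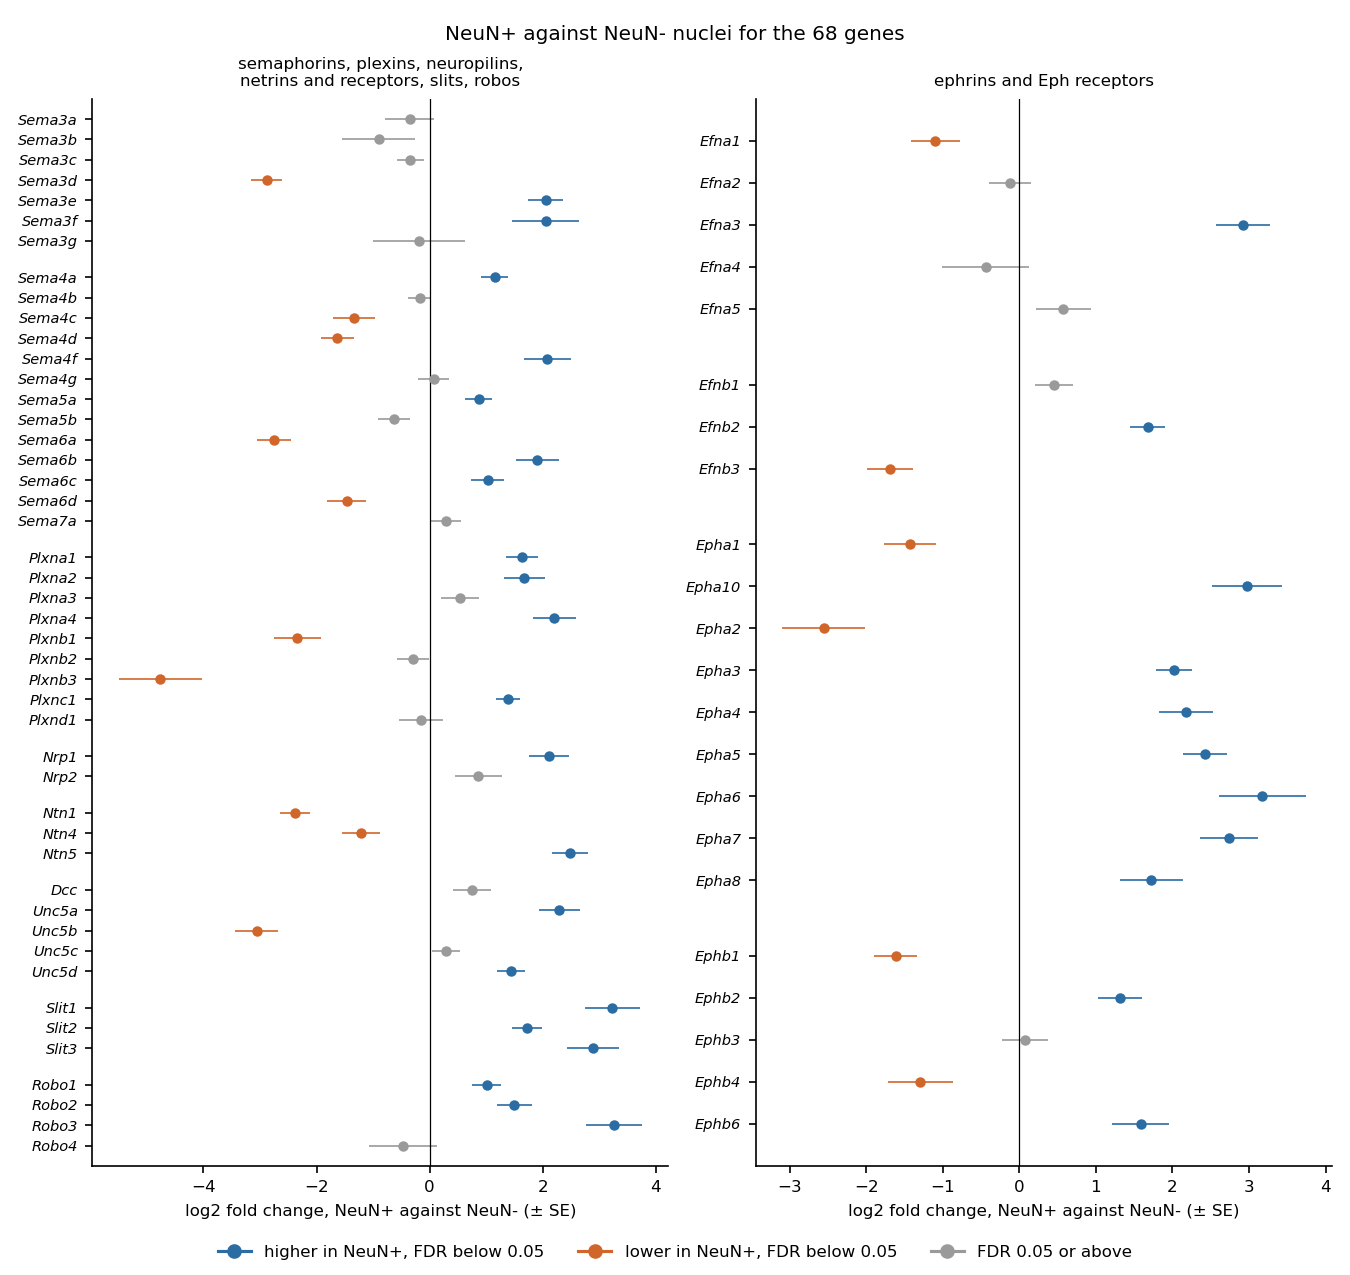
Log2 fold change of NeuN+ against NeuN- nuclei for the 68 genes, with its SE, grouped by family. Blue points are higher and orange points lower in NeuN+ at an FDR below 0.05, and grey points did not pass; the slits and most EphA receptors lie to the right, Plxnb3, Unc5b and Sema3d farthest to the left.

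Receptors leaned more to neurons than ligands did: the median log2 fold change (logFC) of NeuN+ against NeuN- was 1.35 over the 34 receptors and -0.03 over the 34 ligands, beside 0.01 over all protein-coding genes tested. Of the receptors 19 were higher and 7 lower in NeuN+, and of the ligands 13 were higher and 9 lower. These are counts, and the difference between the lists was not tested.

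Slits and their Robo receptors were neuronal. Slit1, a secreted repellent, ranged from 405 to 1134 CPM in the 6 NeuN+ libraries (median 513) and from 15.3 to 138 CPM in the 6 NeuN- libraries (median 60.6). The fractions did not overlap, and the logFC was 3.23 ± 0.49 (SE, FDR = 0.000132). Slit2 and Slit3 were higher in NeuN+ as well, with logFC of 1.72 ± 0.26 and 2.89 ± 0.46. Robo3, a divergent Robo receptor known from commissural axons, had the largest NeuN+ excess of the 68, with 127 to 305 CPM (median 168) in NeuN+ and 3.54 to 41.7 CPM (median 21.8) in NeuN- libraries. Its fractions did not overlap either, and its logFC was 3.27 ± 0.49 (FDR = 0.000124). Robo1 and Robo2 were higher in NeuN+ by logFC of 1.01 ± 0.26 and 1.5 ± 0.31. Robo4, which is known from endothelial cells, did not pass the test, at 1.06 to 3.99 CPM in NeuN+ and 0.247 to 5.48 CPM in NeuN- libraries.

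The EphA receptors, receptor tyrosine kinases for A-type ephrins, fell on both sides. Epha3, Epha4, Epha5, Epha6, Epha7, Epha8 and Epha10 were higher in NeuN+, with logFC from 1.73 to 3.18. Epha6 had the largest of them, with 153 to 615 CPM (median 339) in NeuN+ and 7.39 to 70.6 CPM (median 43.4) in NeuN- libraries, without overlap (logFC 3.18 ± 0.56, FDR = 0.000506). Epha1 and Epha2 were lower in NeuN+, with logFC of -1.43 ± 0.34 and -2.56 ± 0.54. Epha2 ranged from 0.121 to 1.86 CPM in NeuN+ and from 2.27 to 7.17 CPM in NeuN- libraries, and the fractions of both genes did not overlap. Among the EphB receptors, which bind B-type ephrins, Ephb2 and the kinase-inactive Ephb6 were higher and Ephb1 and Ephb4 lower in NeuN+, while Ephb3 did not pass (logFC 0.07 ± 0.30).

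Netrins and their receptors were divided in the same manner. Ntn1, the best known netrin, ranged from 2.48 to 6.87 CPM (median 3.73) in NeuN+ and from 14.3 to 28.7 CPM (median 21.9) in NeuN- libraries. All NeuN- libraries lay above all NeuN+ libraries, with a logFC of -2.38 ± 0.27 (FDR = 1.18e-05). Unc5b, a repulsive netrin receptor also known from endothelium, was glial too, with 6.17 to 19.9 CPM (median 13.9) in NeuN+ and 54.1 to 191 CPM (median 88.6) in NeuN- libraries, and its fractions did not overlap (logFC -3.06 ± 0.38, FDR = 2.41e-05). Unc5a and Unc5d were higher in NeuN+, with logFC of 2.29 ± 0.36 and 1.45 ± 0.25. Dcc did not pass without the block (logFC 0.76 ± 0.34, FDR = 0.153) and passed with it (FDR = 0.000555). Ntn4 was lower and Ntn5 higher in NeuN+, but 23.4% of the exon bases of Ntn5 are shared with Sec1 on the other strand. Counting ignored the strand and left out reads over more than 1 gene, so reads in the shared bases are missing from the Ntn5 count.

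Plexins, the semaphorin receptors, held the largest glial excess of all. Plxnb3 ranged from 3.33 to 59.8 CPM (median 12.7) in NeuN+ and from 262 to 1236 CPM (median 411) in NeuN- libraries. Every NeuN- library was above every NeuN+ library, with a logFC of -4.77 ± 0.73 (FDR = 0.000148). Plxnb1, the receptor of Sema4d, was also lower in NeuN+ (logFC -2.34 ± 0.42), as was Sema4d itself (-1.63 ± 0.30). Plxna1, Plxna2, Plxna4 and Plxnc1 were higher in NeuN+, with logFC from 1.39 to 2.20, and Plxnb2 and Plxnd1 did not pass. Plxna3 passed with the block alone (FDR = 0.00681, against 0.369 without it). The neuropilin Nrp1, a coreceptor for class 3 semaphorins and vascular growth factors, was higher in NeuN+ (logFC 2.10 ± 0.35).

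Genes of a family that lie on the same chromosome and strand differed in their fraction. On chromosome 5 (GRCm38), Sema3d (chr5:12383385-12588948) and Sema3e (chr5:14025276-14256689) flank Sema3a, all on the plus strand. Sema3d ranged from 6.74 to 12.05 CPM (median 7.69) in NeuN+ and from 43.7 to 89.4 CPM (median 66.2) in NeuN- libraries. Its fractions did not overlap (logFC -2.88 ± 0.28, FDR = 2.88e-06). Sema3e had the opposite sign, with 69.2 to 278 CPM (median 134) in NeuN+ and 15.9 to 74.3 CPM (median 29.2) in NeuN- libraries, which overlapped by KA glia replicate 3 (logFC 2.05 ± 0.31, FDR = 0.000123). Sema3a between them did not pass (logFC -0.35 ± 0.44). On chromosome 3, the ephrins Efna1 (chr3:89271733-89281142), Efna3 (chr3:89313899-89322965) and Efna4 (chr3:89333390-89338028) follow each other on the minus strand. Efna1 was lower in NeuN+ (logFC -1.10 ± 0.32, FDR = 0.0236), Efna3 higher (2.92 ± 0.36, FDR = 2.09e-05), and Efna4 did not pass (-0.44 ± 0.57). Of the exon bases of Efna3 and Efna4, 14.1% and 10.5% are shared with genes on the other strand.

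Divided by exon length, Slit1 had the highest mean level of the 68 over the 6 NeuN+ libraries, with 100.4 ± 45.9 CPM per kb of exon (SD, n = 6). Ephb6 (78.3 ± 33.9), Epha7 (69.4 ± 17.3), Epha6 (67.0 ± 30.5) and Unc5a (67.0 ± 17.3 CPM per kb) followed, and these neighbours did not differ beyond their spread. The order rested on SH: Slit1 was at 126.2 ± 56.6 CPM per kb in SH neurons (SD, n = 3) and at 74.6 ± 7.42 in KA neurons, where Ephb6 was higher with 81.0 ± 33.1. In NeuN- nuclei the highest level belonged to Efnb3, a B-type ephrin, with 140.4 ± 64.5 CPM per kb, followed by Plxnb3 with 90.9 ± 60.4. Ephb6 came next with 26.2 ± 13.5 CPM per kb, then Plxnb1, Sema6d and Sema6a between 20.8 and 22.7. The leading gene of a family differed between the fractions for the secreted semaphorins (Sema3e in NeuN+, Sema3d in NeuN-), the membrane-bound semaphorins (Sema6b and Sema6d), plexins (Plxna4 and Plxnb3), netrins (Ntn5 and Ntn1), netrin receptors (Unc5a and Unc5b), Robo receptors (Robo3 and Robo2) and A-type ephrins (Efna3 and Efna1). Nrp1, Slit1, Efnb3, Epha7 and Ephb6 led their families in both.

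The leading genes of the remaining families are given by their CPM. Unc5a ranged from 212 to 412 CPM (median 257) in NeuN+ and from 20.9 to 103 CPM (median 55.7) in NeuN- libraries. Plxna4, a plexin that pairs with neuropilins, ranged from 313 to 653 CPM (median 445) and from 34.4 to 159 CPM (median 112), and Nrp1 from 262 to 635 CPM (median 442) and from 54.3 to 187 CPM (median 97.9). None of the 3 overlapped between the fractions. Epha7 ranged from 447 to 912 CPM in NeuN+ and from 45.3 to 197 CPM in NeuN- libraries, and Robo2 from 165 to 320.0 CPM and from 35.6 to 106 CPM, again without overlap. Sema6b, a membrane-bound semaphorin, ranged from 151 to 279 CPM and from 17.5 to 99.9 CPM (logFC 1.90 ± 0.38), and Efna3 from 45.6 to 73.4 CPM and from 2.73 to 13.1 CPM. Both were without overlap. Ephb6 (162 to 464 CPM against 54.1 to 184 CPM), Efna1 (6.14 to 16.3 CPM against 11.4 to 34.8 CPM) and Sema6d (45.0 to 118 CPM against 111 to 445 CPM) overlapped between the fractions. Ntn5 did not, at 11.7 to 26.3 CPM and 1.56 to 4.32 CPM.

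**Figure D2:**
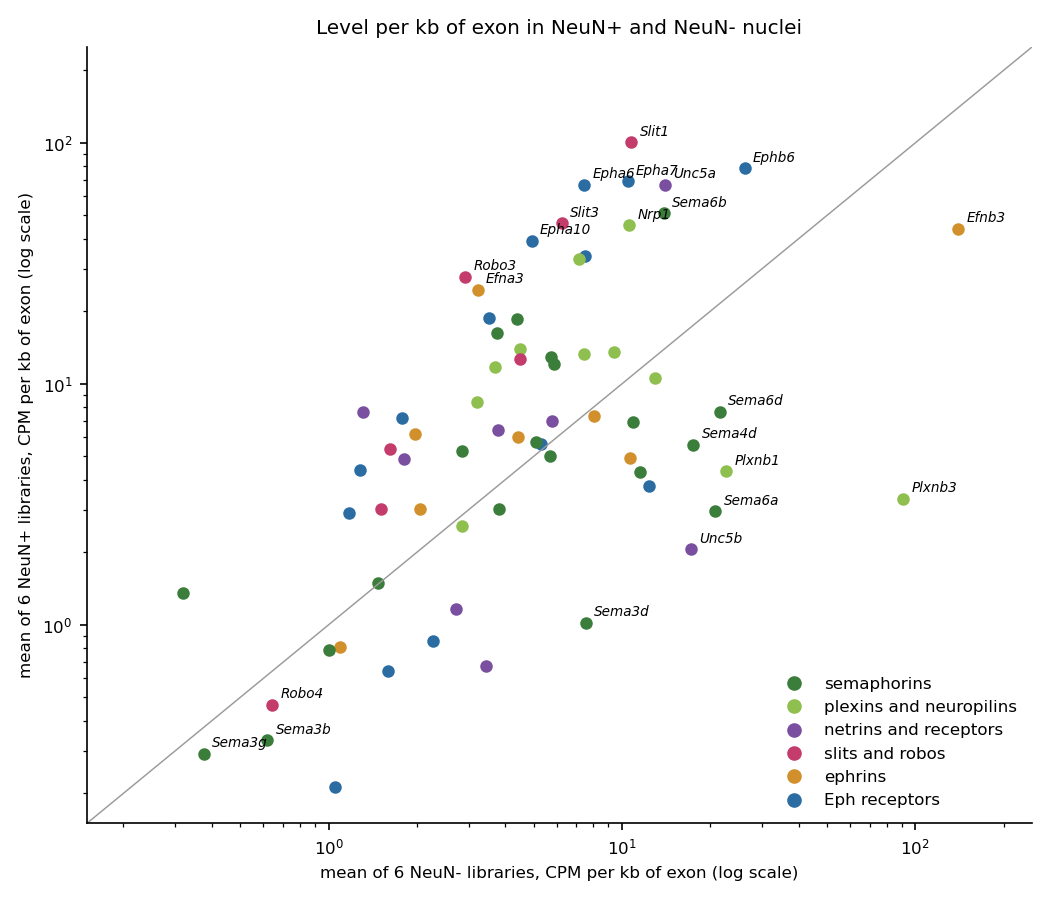
Mean level in the 6 NeuN+ libraries (vertical axis) against the 6 NeuN- libraries (horizontal axis), in CPM per kb of exon on log scales, 1 point per gene coloured by family. The grey line marks equal levels; Slit1 stands highest at 100.4 in NeuN+, and Efnb3 and Plxnb3 lie farthest to the right at 140.4 and 90.9 in NeuN-.

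The second question was what differed between KA and SH in neurons. None of the 68 genes passed an FDR of 0.25 with edgeR (0.34% of all genes did), and none passed with DESeq2. At an unadjusted p below 0.05 there were 6 of 68, beside 3.2% of all genes and 4.92% of protein-coding genes. Sema3e, Epha2 and Ntn1 were higher, and Efnb3, Sema5a and Sema6c lower in KA. The KA and SH libraries carry the same replicate numbers and deviated together. When that number was added to the fit as a block, 4 genes rose (1.94% of all genes) and 2 fell (1.11%). These 6 are 8.82% of the 68, beside 4.79% of protein-coding genes. They were Sema3e, Epha2, Sema4a and Plxnb1, which rose, and Efnb3 and Sema6c, which fell. Without the libraries of replicate 3 the block gave 0 of 68 in either direction. Few of all genes passed in that fit, and their share is given with the alternatives below.

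Sema3e, a secreted semaphorin that binds Plxnd1 without a neuropilin, was at 89.3, 69.2 and 112 CPM in SH neurons and at 157, 201 and 278 CPM in KA neurons. All 3 KA libraries were above all 3 SH libraries, and replicate 3 was the highest in both. The logFC was 1.23 ± 0.43 (FDR = 0.838) without and 1.22 ± 0.26 (FDR = 0.0225) with the block. Its receptor Plxnd1 did not pass in either fit, with a logFC of -0.50 ± 0.55.

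Epha2 was scarce in neurons, with 2, 24 and 4 counts in SH (0.121, 1.01 and 0.163 CPM) and 16, 41 and 46 counts in KA (1.37, 1.42 and 1.86 CPM). The groups did not overlap, but SH replicate 2 lay near the KA libraries. The logFC was 1.81 ± 0.77 without and 2.14 ± 0.67 with the block (FDR = 0.185). Without SH replicate 2 the unblocked logFC was 3.38. Sema4a, a membrane-bound class 4 semaphorin, was at 33.3, 67.3 and 59.1 CPM in SH and 63.4, 83.9 and 112 CPM in KA neurons, which overlapped by a single SH library (block logFC 0.72 ± 0.24, FDR = 0.237). Its unblocked logFC was 0.70, and 0.45 without SH replicate 1.

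Plxnb1 was at 9.81, 31.1 and 57.1 CPM in SH and 27.7, 52.9 and 71.9 CPM in KA neurons. The groups overlapped, and KA was higher within each replicate number (block logFC 0.85 ± 0.26, FDR = 0.154). Plxnb1 was lower in NeuN+ than in NeuN- nuclei, and the part of glial RNA in its NeuN+ values was not tested. Among the remaining genes near the top, Ntn1 was at 2.48, 4.13 and 2.49 CPM in SH and 3.33, 6.87 and 6.08 CPM in KA neurons, with overlap (logFC 0.84 ± 0.37, block FDR = 0.412). Unc5d, a netrin receptor family member, was at 33.1, 33.3 and 36.7 CPM in SH and 47.8, 53.6 and 65.1 CPM in KA neurons, without overlap, and did not pass in either fit (logFC 0.69 ± 0.35, block FDR = 0.452).

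Efnb3 was at 147, 181 and 247 CPM in SH and at 104, 70.9 and 91.0 CPM in KA neurons. All KA libraries were below all SH libraries, with a logFC of -1.12 ± 0.42 without and -1.10 ± 0.27 with the block (FDR = 0.0570). Sema6c, a membrane-bound class 6 semaphorin, was at 77.2, 85.0 and 126 CPM in SH and 47.3, 35.1 and 61.2 CPM in KA neurons. Here too the groups did not overlap, and the logFC was -1.0 ± 0.41 without and -1.01 ± 0.26 with the block (FDR = 0.0650).

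Sema5a, a semaphorin with thrombospondin repeats, was at 79.8, 125 and 174 CPM in SH and 78.8, 75.3 and 56.6 CPM in KA neurons. The groups came within about 1 CPM of each other without overlapping, and the gene missed the threshold with the block (logFC -0.79 ± 0.28, FDR = 0.296). Ntn5 was at 17.1, 19.1 and 26.3 CPM in SH and 14.5, 12.5 and 11.7 CPM in KA neurons without overlap (block FDR = 0.626). Epha8 was at 14.1, 44.2 and 21.8 CPM in SH and 13.1, 14.3 and 16.8 CPM in KA neurons with overlap (block FDR = 0.628). Over the 68 genes, the KA libraries were all higher for 4 genes and all lower for 6. The shares were 5.27% and 4.45% of all genes, and 5.21% and 6.47% of protein-coding genes.

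**Figure D3:**
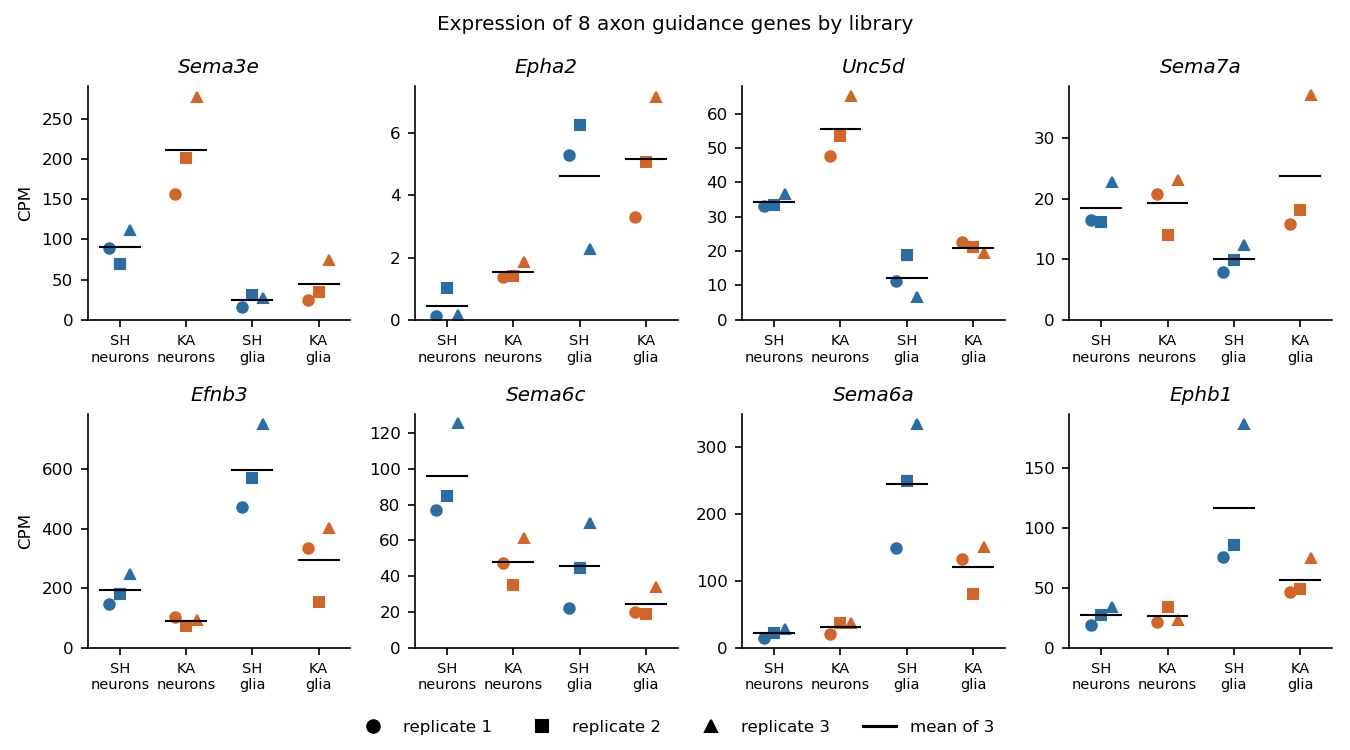
CPM of 8 genes in the 12 libraries, 3 per group, with SH in blue and KA in orange, the replicate number as the marker and the group mean as a bar. Sema3e in neurons and Sema7a in glia show KA libraries all above SH libraries, and Efnb3 shows KA libraries all below SH libraries in both cell types.

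In glia, again none of the 68 genes passed an FDR of 0.25 with edgeR (0.747% of all genes did), and DESeq2 called 4 of the 65 for which it gave an adjusted p: Sema7a higher, Efnb3, Ephb1 and Sema6a lower. Of the 18631 genes for which DESeq2 gave an adjusted p, it called 5.18%. At an unadjusted p below 0.05 there were 7 of 68, beside 4.79% of all genes and 7.44% of protein-coding genes. Sema7a and Unc5d were higher, and Efnb3, Ephb1, Sema5a, Sema6a and Sema6c lower in KA. Efnb3, Sema5a and Sema6c were lower at that level in neurons as well. With the replicate block 4 genes rose (3.47% of all genes) and 9 fell (4.17%), which makes 19.1% of the 68 beside 11.6% of protein-coding genes. Sema7a, Unc5d, Sema4c and Sema3e rose. Efnb3, Ephb1, Sema6a, Sema6c, Sema6d, Plxnb1, Plxna3, Unc5a and Slit1 fell. In glia SH was the low-input library in replicate 1 and KA in replicate 2. Within these replicate numbers treatment and RNA input cannot be told apart. KA replicate 2 was the lowest KA glia library for Efnb3, Sema6a, Sema6c, Plxnb1 and Plxna3, and KA replicate 1 for the other genes that fell. Without the libraries of replicate 3 the block again gave 0 of 68, and again few of all genes passed in that fit.

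Markers of several cell types were lower in KA glia beside these values. The summed level of the 8 oligodendrocytic markers was 7488 to 14034 CPM in KA glia and 14283 to 29771 CPM in SH glia, and that of the 5 OPC markers was 560 to 859 CPM and 1354 to 2439 CPM, without overlap in either list. None of the 8 and 1 of the 5 passed without the block, 5 and 4 with it, all lower in KA. The astrocytic sum was 1166 to 2214 CPM in KA and 1940 to 2837 CPM in SH glia, and the neuronal sum 757 to 3057 CPM and 1244 to 3471 CPM. The microglial sum was 873 to 1843 CPM and 1165 to 2722 CPM. Without the block 1 of 15 neuronal, 1 of 10 astrocytic and 2 of 10 microglial markers passed, lower in KA. With it 3 of 15 neuronal, 7 of 10 astrocytic and 3 of 10 microglial markers were lower, and 1 astrocytic marker was higher. The leukocyte sum went the other way, at 85.1 to 124 CPM in KA and 76.3 to 84.8 CPM in SH glia, without overlap. The endothelial sum was 23.3 to 59.8 CPM and 11.4 to 40.4 CPM, and the pericytic sum 30.5 to 74.8 CPM and 61.5 to 121 CPM. No marker of these 3 lists passed without the block. With it 1 of 7 endothelial markers was higher and 1 of 5 pericytic markers lower. The part of these shifts in the results for glia was not tested.

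Sema7a, a semaphorin with a lipid anchor, was at 7.88, 9.83 and 12.3 CPM in SH and at 15.8, 18.2 and 37.2 CPM in KA glia. All KA libraries were above all SH libraries, and KA replicate 3 stood highest. The logFC was 1.24 ± 0.38 (FDR = 0.384) without and 1.17 ± 0.29 (FDR = 0.0360) with the block. Without KA replicate 3 the unblocked logFC was 0.75. In neurons the same gene was at 16.2 to 22.7 CPM in SH and 14.0 to 23.1 CPM in KA (logFC 0.06 ± 0.37).

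Unc5d was at 11.4, 18.8 and 6.48 CPM in SH and 22.6, 21.1 and 19.4 CPM in KA glia. The groups did not overlap, and SH varied more than KA (logFC 0.78 ± 0.35, block FDR = 0.125). Its logFC was 1.23 without SH replicate 2 and 0.47 without SH replicate 3. Sema3e was at 15.9, 31.4 and 27.0 CPM in SH and 24.6, 35.1 and 74.3 CPM in KA glia, with overlap (logFC 0.85 ± 0.42, block FDR = 0.187). Without KA replicate 3 its logFC in glia was 0.26. Of the 68, Sema3e alone rose in both cell types with the block.

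Sema4c, a class 4 semaphorin that acts on Plxnb2, was at 15.998, 32.9 and 58.4 CPM in SH and at 41.5, 38.9 and 129.9 CPM in KA glia. The groups overlapped, and KA was higher within each replicate number (logFC 0.97 ± 0.51, block FDR = 0.0951). Its logFC was 0.15 without KA replicate 3 and 1.52 without SH replicate 3. Efna5, an A-type ephrin, was at 9.16, 7.59 and 2.00 CPM in SH and 15.6, 10.6 and 4.61 CPM in KA glia, overlapped and did not pass (block FDR = 0.256). Of the exon bases of Sema4c, 7.27% are shared with a gene on the other strand.

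Efnb3 was at 472, 571 and 752 CPM in SH and at 334, 152 and 400.3 CPM in KA glia. All KA libraries were below all SH libraries, as in neurons, and the lowest was the low-input library KA replicate 2. The logFC was -1.02 ± 0.42 (FDR = 0.855) without and -1.10 ± 0.28 (FDR = 0.0376) with the block. Ephb1, a receptor for B-type ephrins, was at 75.8, 85.6 and 187 CPM in SH and 46.1, 49.1 and 74.3 CPM in KA glia. The groups did not overlap, though by little, and the logFC was -1.04 ± 0.39 without and -0.95 ± 0.25 with the block (FDR = 0.0523). Without SH replicate 3 the unblocked logFC was -0.52. In neurons Ephb1 had a logFC of -0.04 ± 0.39.

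Sema6a, a membrane-bound semaphorin that acts on A-type plexins, was at 149, 249.5 and 334 CPM in SH and 132, 80.8 and 150.4 CPM in KA glia. The groups overlapped by SH replicate 1 alone (logFC -1.01 ± 0.41, block FDR = 0.0549). Plxnb1 was at 210.1, 171 and 477 CPM in SH and 143, 98.0 and 206 CPM in KA glia, with overlap and with KA lower within each replicate number (logFC -0.94 ± 0.56, block FDR = 0.0860). Sema6a, Plxnb1, Efnb3 and Ephb1 are all lower in NeuN+ than in NeuN- nuclei. So are Sema6d, which also fell in KA glia with the block, and Sema4c, which rose. The other genes lower in NeuN+ did not pass in glia with the block. The oligodendrocytic sums given before were lower in KA glia, and their part in these values was not tested.

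Sema6c was at 22.3, 44.6 and 69.8 CPM in SH and 19.99, 19.0 and 33.9 CPM in KA glia, with overlap (logFC -0.91 ± 0.41, block FDR = 0.129), and without SH replicate 3 its logFC was -0.46. Sema5a was at 51.3, 69.6 and 77.1 CPM in SH and 41.2, 36.6 and 42.7 CPM in KA glia. It did not overlap and missed the threshold narrowly (block logFC -0.70 ± 0.27, FDR = 0.251). The other 4 genes that fell with the block were Unc5a (block logFC -0.84 ± 0.25, FDR = 0.0940), Plxna3 (-0.69 ± 0.23, 0.141), Sema6d (-0.60 ± 0.23, 0.238) and Slit1 (-0.65 ± 0.26, 0.248). In SH and then KA glia, Unc5a was at 33.1, 84.6 and 103 against 20.9, 30.4 and 78.3 CPM, and Plxna3 at 64.0, 60.5 and 151 against 39.98, 39.2 and 88.2 CPM. Sema6d was at 189, 190.0 and 445 against 111, 141 and 293 CPM, and Slit1 at 15.7, 92.8 and 138 against 15.3, 47.9 and 73.3 CPM. All 4 overlapped, and KA was lower within each replicate number. Slit1, Unc5a and Sema6c were higher in NeuN+ than in NeuN- nuclei. So were Sema3e and Unc5d, which rose in KA glia with the block. The summed neuronal markers in glia were lower in KA within each replicate number, and their part in these values was not tested. The KA glia libraries were all higher for 2 of the 68 genes and all lower for 4. The shares were 3.61% and 3% of all genes, and 3.87% and 4.55% of protein-coding genes.

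**Figure D4:**
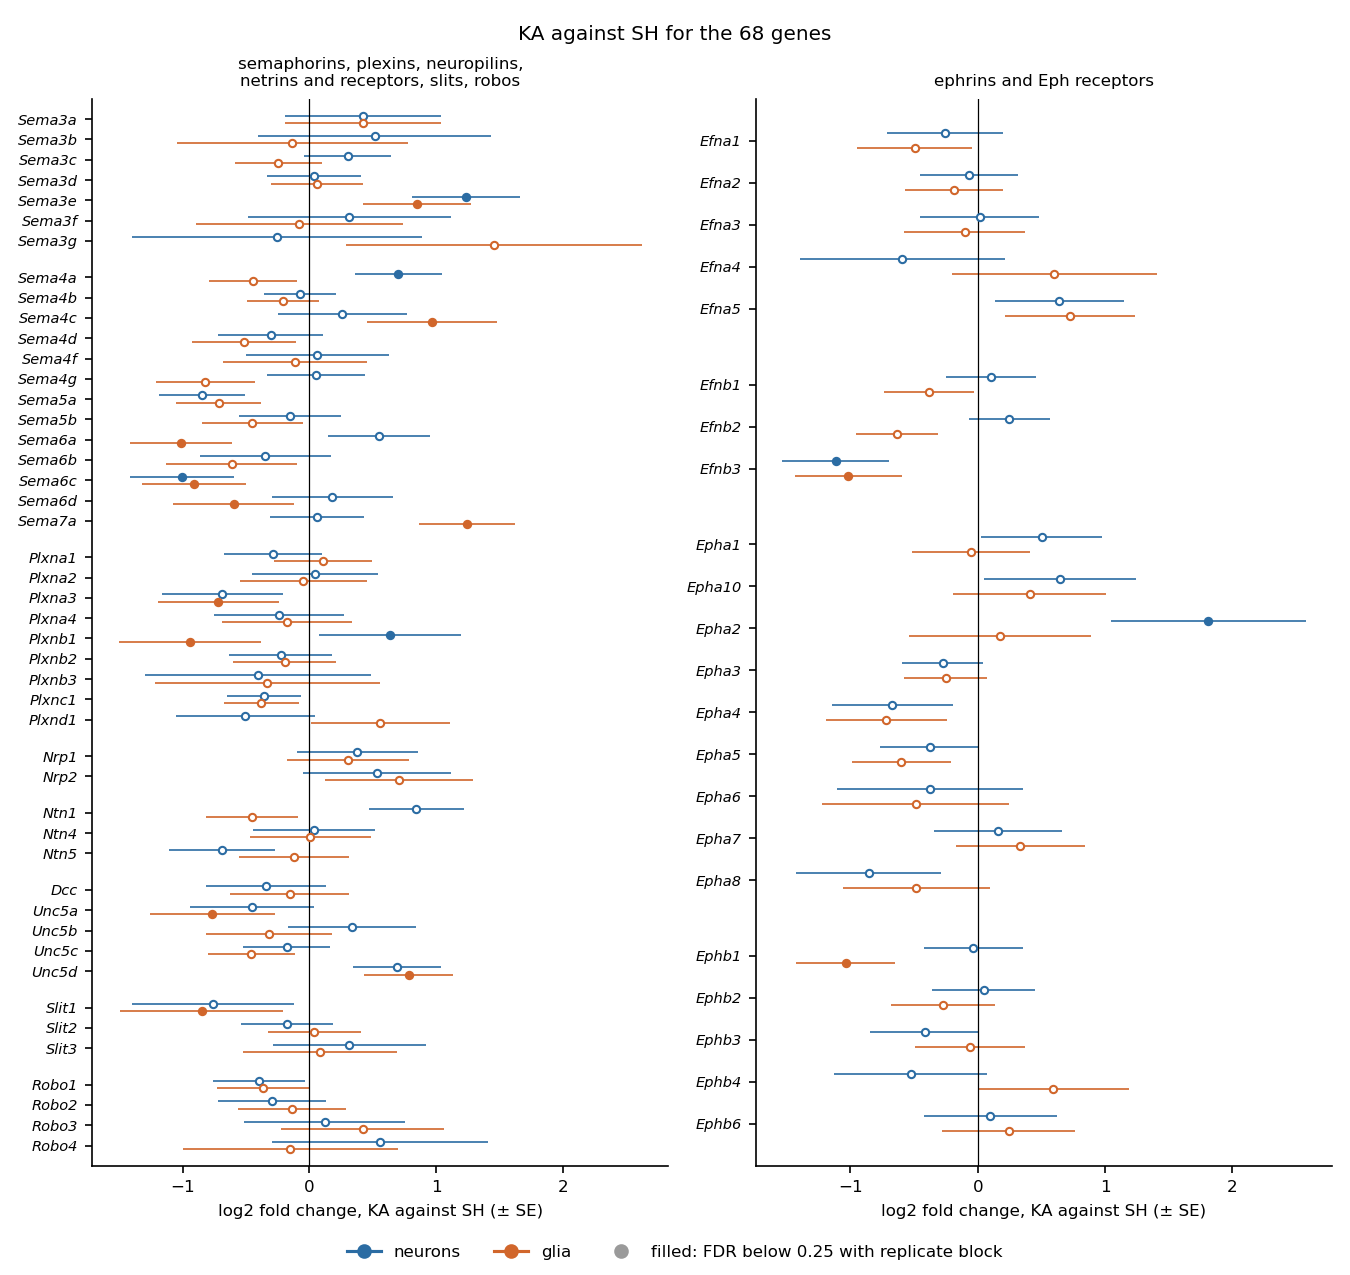
Log2 fold change of KA against SH with its SE for the 68 genes, in neurons (blue) and glia (orange), from the fit without a block. Filled points had an FDR below 0.25 in the fit with the replicate block, 6 in neurons and 13 in glia; Efnb3 and Sema6c lie to the left in both cell types, Sema3e to the right.

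The third question was whether the effect of KA differed between the cell types. None of the 68 genes passed an FDR of 0.25 for the difference of both logFC values with edgeR (0% of all genes did) or with DESeq2. With edgeR 4 of 68 had an unadjusted p below 0.05, beside 1.34% of all genes and 1.98% of protein-coding genes. These were Ntn1, Sema4a and Sema6a, higher in neurons, and Sema7a, lower. With the pool as a block 1 gene passed (0.471% of all genes), Sema6a, with a difference of 1.55 ± 0.36 (FDR = 0.196). Plxnb1 had opposite signs in neurons and glia, and its difference was 1.70 ± 0.48 with the block (FDR = 0.367). Efnb3 differed by -0.10 ± 0.59 and Sema3e by 0.38 ± 0.60 between neurons and glia, both far from the threshold.

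Over the whole group the median logFC of KA against SH was -0.01 in neurons, with 34 genes above and 34 below 0, beside -0.06 over all protein-coding genes tested. In glia it was -0.18, with 22 above and 46 below 0, beside 0.01 over protein-coding genes. By family, 11 of the 13 membrane-bound semaphorins had a logFC below 0 in glia (median -0.52), with 2 rising and 3 falling with the block. All 3 B-type ephrins were below 0 in glia (median -0.64), with 1 falling. Both neuropilins were above 0 in both cell types and did not pass, with Nrp2, a coreceptor of Sema3f, at logFC 0.53 ± 0.58 in neurons and 0.71 ± 0.59 in glia.

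Other genes of the pathway were counted in the same fits. Of 32 further cues and receptors, none passed in neurons and 1 was lower in KA glia, the myelin protein Omg, a ligand of the Nogo receptor. It was at 321, 132 and 270.0 CPM in SH and 88.1, 42.6 and 52.5 CPM in KA glia, without overlap (logFC -1.98 ± 0.43, FDR = 0.0978). Of 44 intracellular effectors, none passed in neurons and 1 was lower in KA glia, Chn1, a Rac inhibitor that acts below EphA receptors. It was at 77.3, 104 and 133 CPM in SH and 25.8, 27.6 and 44.6 CPM in KA glia, without overlap (logFC -1.68 ± 0.36, FDR = 0.0830). In neurons Chn1 was at 410.3, 351 and 398 CPM in SH and 149, 166 and 154 CPM in KA, also without overlap, and passed with the block (FDR = 0.00397) but not without it (FDR = 0.375). With the block, 3 cues and receptors and 3 effectors rose and 1 of each fell in neurons, and 0 and 2 rose and 6 and 8 fell in glia. Among protein-coding genes, 2.85% rose and 1.94% fell in neurons with the block, and 4.42% rose and 7.13% fell in glia.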

How the data were processed

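Members and lists were chosen with earlier results of these data known. The authors trimmed reads (Trim Galore 0.4.3), aligned them to mm10 with Rsubread and counted unique reads per gene with featureCounts (GENCODE M16, strand ignored, reads over more than 1 gene left out). The deposited values are whole-number counts without normalization, and methylation data were not used here. Which library ran on which sequencer was not given in the sources used here. Genes with a GENCODE M21 symbol (53274) were filtered with filterByExpr (37598 genes kept), scaled by TMM and fitted with edgeR 4.0.16 (glmQLFit with legacy=TRUE, R 4.3.3) as 4 group means over 12 libraries. Adjusted p values (FDR, Benjamini-Hochberg over all genes) were held against 0.25 for KA against SH, after the study's methods, and 0.05 for NeuN+ against NeuN-. CPM used TMM library sizes. SE is the size of logFC over the square root of F. Pools are the replicates, so n = 3 per group. Same-numbered KA and SH libraries deviated from their group means together (correlation over genes 0.399, 0.264 and 0.551 in neurons, 0.457, 0.543 and 0.764 in glia), and both fractions of a pool come from the same mice, so block fits are given where a call changed. The study does not describe KA and SH pools as paired. Values by library are given for the 5 smallest p values per direction and cell type, and for Plxnb1, Sema6d, Plxna3, Unc5a and Slit1, added after their block calls were seen. Ranges over 6 libraries are given for the 3 largest NeuN differences per direction and the leading gene per family and fraction. DESeq2 1.42.0 was an alternative, and figures were drawn with matplotlib 3.10.9.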

Additional observations from a re-analysis of the deposited data

Results flagged for a closer look

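Among the 6 libraries of a fraction, the highest or lowest value stood apart by Dixon's criterion (gap to the next value over the range, above the 95% critical value for 6 values) in 14 of 136 searches over the 68 genes. For 6 independent values of 1 group chance flags about 1 in 20. Here KA and SH libraries were searched together and the genes share libraries, so that rate need not hold. The gap over the range is given for each. SH glia replicate 3 was the highest NeuN- library for Ephb1 (0.719), Plxnb1 (0.704), Sema4b (0.643) and Sema4g (0.744). KA glia replicate 3 was the highest for Sema3e (0.671), Sema4c (0.627) and Sema7a (0.649), and KA glia replicate 1 the lowest for Sema3c (0.768). SH neurons replicate 3 was the highest NeuN+ library for Plxna3 (0.656), Slit1 (0.768) and Unc5c (0.697), and SH neurons replicate 2 for Epha8 (0.719) and Ephb4 (0.751). SH neurons replicate 1 was the lowest for Efnb2 (0.671). The largest step was that of Slit1, at 1134 CPM in SH neurons replicate 3 and 574 CPM in the next library.

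The effect of KA on Sema6a differed between neurons and glia in the fit with the pool as a block, with a difference in logFC of 1.55 (FDR = 0.196, edgeR). Without the block the difference was 1.56 ± 0.57 and did not pass.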

How the results depend on the processing

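In neurons the count of 0 genes higher and 0 lower in KA became 1 and 1 (Sema3e, Efnb3) with at least 10 counts in every library, 1 and 2 with separate fits of the cell types (Sema6c added), and 4 and 2 with the replicate block. In glia it became 1 and 3 (Sema7a and Efnb3, Ephb1, Sema6a) with at least 10 counts in every library and with DESeq2, 1 higher (Sema7a) with protein-coding genes only, an alternative chosen after seeing the data, and 4 and 9 with the replicate block. For the count filter, the separate fits and protein-coding genes only, the share of all genes called is not given here. Those counts therefore have no background beside them. The block gave 1 gene in place of 0 for the difference between cell types, Sema6a, and turned no direction among the genes followed below. With both libraries of a replicate number left out, also chosen after seeing the data, the block ranged from 0 to 6 higher and 0 to 7 lower in neurons, and from 0 to 7 higher and 0 to 18 lower in glia, with 0 in each case without replicate 3. The 18 lower in glia, without replicate 1, are 26.5% of the 68 beside 5.04% of all genes in that fit, the 7 lower in neurons 10.3% beside 1.5%, and without replicate 2 the 7 higher in glia 10.3% beside 5.18% and the 6 higher in neurons 8.82% beside 2.55%. Without replicate 3, 0.283% of all genes passed in neurons and 0.855% in glia, in either direction. For these fits the shares among protein-coding genes alone are not given here. Leaving out a single library gave 0 to 1 genes higher in KA glia (Unc5d without SH glia replicate 2) and 0 otherwise for KA against SH. For NeuN+ against NeuN- it gave 26 to 34 higher and 14 to 18 lower, and without both low-input libraries the counts were 24 and 13. The shares of all genes in these fits are not given here either. Other scalings, edgeR with legacy=FALSE, no filter and an FDR of 0.05 left the KA counts at 0. Signs were followed for the genes with the smallest p values and those with the largest NeuN differences, each in its own comparison. None of these changed sign under any alternative run. The other leading genes per family were not followed, nor were the genes added after their block calls for KA against SH. With 3 pools a group, the median SE for KA against SH was 0.47 on the log2 scale. A logFC well above this SE still did not pass without the block, such as 1.23 for Sema3e in neurons and 1.24 for Sema7a in glia. The count of 0 genes in that fit therefore leaves changes of this size undecided.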

Other observations

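Some secreted semaphorins were near the limit of detection. Sema3f was at 5.02 to 8.64 CPM in NeuN+ libraries and at 0 to 3.20 CPM in NeuN- libraries, with 0 counts in SH glia replicate 1, and Sema3b and Sema3g were below 5 CPM in every library. The lowest values of Sema3g were 1 count in SH neurons replicate 1 and 6 counts in SH glia replicate 3, so its logFC of KA against SH in glia, 1.46 ± 1.17, rested on few reads.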
